A study of Bos taurus with 6 samples.

Results

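The genes described here are 40 bovine genes of inflammatory signalling, made up of chemokines, cytokines, their receptors, the NF-kappaB subunits and inhibitors, and a set of effectors. They were picked out by gene symbol from the 23475 genes with an FPKM value. Their RNA was measured in Bos taurus cells 48 h after they received the bta-miR-484 agomir (3 libraries, replicates 1 to 3) or the agomir NC (3 libraries, replicates 1 to 3). An agomir is a modified RNA duplex that raises the amount of a miRNA in cells, and the agomir NC is its negative control, so all 6 libraries come from transfected cells. The study asked what raised bta-miR-484 does to adipose precursor cells. The cells were isolated from the subcutaneous fat of 3 premature calves and grown in medium with fetal bovine serum, and neither group was left untransfected. The labels call them adipocytes, and the methods of the study use both adipocytes and preadipocytes for them. Whether the 3 replicates of a group came from separate calves or separate cultures is not stated, so each p-value measures the spread between samples of unstated origin.

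Chemokines draw leukocytes into tissue, and cytokines such as IL-6 and TNF pass inflammatory signals between cells. In resting cells the NF-kappaB subunits are held back by inhibitor proteins, and signals from TNF, IL-1 or Toll-like receptors free them to switch on chemokine, cytokine and inhibitor genes. Preadipocytes are known as a source of IL-6 and CCL2 in fat.

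FPKM is the number of fragments scaled for transcript length and library size, so levels of different genes can be compared per length. No read numbers were used, and the depth behind each value is unknown. Summed over all genes, a library held 365977 to 379361 FPKM. The test took genes whose mean over the 6 libraries reached 0.5 FPKM, which kept 12422 genes and 34 of the 40. A log2 fold change below is the mean of log2(FPKM + 0.5) in the agomir libraries minus that in the agomir NC libraries, a scale on which low genes appear to differ less than they do. SE is the standard error of that difference. A leave-one-out range is the lowest and highest log2 fold change found when each library is dropped in turn. Each p comes from limma's moderated test, two-sided, and each adjusted p from the Benjamini-Hochberg method over the 12422 genes. Values in 3 libraries are given in the order of replicates 1 to 3, and a mean is given ± SD.

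The highest and lowest values were not spread evenly over the libraries. Of the 34 genes tested, 12 had their highest value in agomir NC replicate 3 (35.3%, beside 19.4% of all genes tested) and 0 had it in agomir NC replicate 1 (beside 13.8%). Agomir NC replicates 1 and 2 each held the lowest value of 10 genes (29.4%, beside 15.6% and 21.4% of all genes tested). The median of the 34 deviations from the mean over libraries was 0.089 on the log2 scale in agomir NC replicate 3 and -0.071 in agomir NC replicate 1.

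The cells carried markers of fibroblast-like precursors and little of mature fat cells. COL3A1 (7428 to 7916 FPKM) and PDGFRA (162 to 172 FPKM) were high in every library, while the preadipocyte marker DLK1 was listed at 0 in all 6. The 8 mature adipocyte markers summed to 11.0 to 12.6 FPKM per library, most of it from LPL (3.48 to 4.33 FPKM), PPARG and FABP4, and the adipokine gene ADIPOQ did not exceed 0.197 FPKM. Of the 12 precursor and adipocyte markers that could be tested, 3 passed an unadjusted p of 0.05 in limma. Of all genes tested, 6.63% were higher and 4.31% lower at that p. PPARG was higher with the agomir (log2 fold change 0.23, adjusted p = 0.407 in limma), whereas FABP4 (-0.49, adjusted p = 0.363 in limma, groups overlapping) and the matrix gene DCN (-0.12, adjusted p = 0.376 in limma) were lower. By sign, 4 of the 5 adipocyte markers were above 0 (80%, beside 55.1% of all genes tested), all but FABP4. Of the 7 precursor markers, 5 were below 0, all but COL1A1 and PDGFRB, which left 28.6% above 0. Their part in the results was not tested.

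Leukocytes are a common source of chemokines and cytokines in whole fat, so their markers were read in each library. The 12 macrophage and leukocyte markers summed to 8.73, 8.92 and 7.52 FPKM in the agomir libraries and to 8.44, 8.81 and 8.15 FPKM in the agomir NC libraries. Most of that came from CD14 (5.85 to 6.45 FPKM), which cells other than leukocytes also express. PTPRC, the common leukocyte antigen, did not exceed 0.119 FPKM, and TYROBP, CD86 and CD2 were listed at 0 in all 6. The 8 endothelial markers summed to 4.09 to 4.94 FPKM, mostly VWF (2.99 to 3.67 FPKM), with CLDN5 listed at 0 in all 6. Of the 4 leukocyte and endothelial markers that could be tested (CD14, CD68, VWF and TEK), 0 passed an unadjusted p of 0.05 in limma. Of all genes tested, 6.63% were higher and 4.31% lower at that p. A count of 0 among 4 genes is near these shares and says nothing more about the markers.

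With the agomir, the growth factor gene CSF1, the gp130 receptor genes IL6ST and LIFR, the TNF receptor gene TNFRSF1B, IL18 and CCL20 were higher, and IL6, PTGS2, VCAM1 and CCL5 were lower, at an unadjusted p of 0.05. All of these differences were small. The log2 fold changes of the 34 genes ran from -0.28 for IL6 to 0.39 for TNFRSF1B, and 0 genes passed p with a fold of at least 1.5, a line that 0.274% of all genes tested passed. The 6 higher genes were 17.6% of the 34, beside 6.63% of all genes tested, and the 4 lower genes were 11.8%, beside 4.31%. Median-ratio scaling moved the split of all genes from 824 higher and 535 lower to 657 and 706, and that of the 34 genes from 6 and 4 to 6 and 5, with NFKBIA added. The agomir libraries lay wholly above the agomir NC libraries in 6 of the 34 (17.6%, beside 10.9% of all genes tested), namely CSF1, IL6ST, LIFR, TNFRSF1B, IL33 and PTX3. They lay wholly below in 3 (8.82%, beside 6.36%), namely IL6, PTGS2 and VCAM1. The median log2 fold change was 0.047, beside 0.013 for all genes tested, with 22 genes above 0 (64.7%, beside 55.1% of all genes tested) and 12 below. Dropping each library in turn moved that median between 0.012 (without agomir NC replicate 1, beside 0.015 for all genes tested) and 0.070 (without agomir NC replicate 3, beside 0.016), and median-ratio scaling put it at 0.031 (beside -0.0020).

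When the limma p-values were adjusted (Benjamini-Hochberg), 0 of the 34 genes were under 0.05, against the 10 at an unadjusted p. The lowest adjusted p was 0.257, for IL6, which was lower in every agomir library than in any agomir NC library. Among all genes tested 1 passed (0.00805%), TRAPPC4, which is outside the 40 and was named after its values were seen. An exact permutation test, two-sided, has 0.1 as its smallest p with 3 libraries in each group. It gave 0.1 for the 7 of the 10 genes whose groups did not overlap, 0.2 for CCL20 and IL18 and 0.3 for CCL5.

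**Figure D1:**
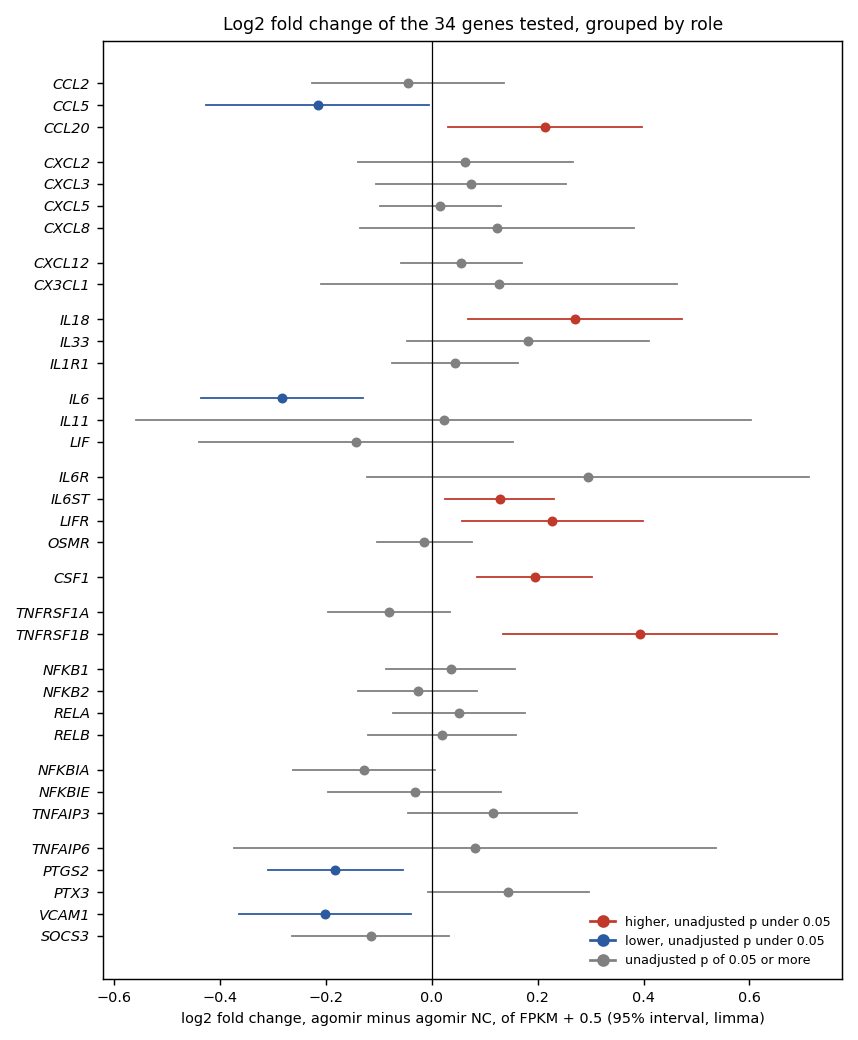
The x axis shows the log2 fold change of FPKM + 0.5, agomir minus agomir NC, for the 34 genes tested, arranged by role, with points for the estimate and lines for the 95% interval from limma. Red marks the 6 genes higher and blue the 4 genes lower at an unadjusted p under 0.05, all within -0.28 and 0.39, and grey the other 24.

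The 40 genes differed widely in level. A mean over 100 FPKM was reached by 5 of them, CXCL5, CCL2, CSF1, CXCL12 and OSMR, while 21 lay between 10 and 100 FPKM and 8 between 0.5 and 10 FPKM. CXCL5 alone held rank 19 of all 23475 genes by mean FPKM. The 6 genes under a mean of 0.5 FPKM did not enter the main test, and with no filter their adjusted p in limma lay between 0.646 and 0.944. They were the ligands TNF, IL1A, IL1B, IL15 and CSF2 and the NF-kappaB subunit gene REL. The genes of the TNF and IL-1 ligands were thus under the filter, while those of their receptors, TNFRSF1A, TNFRSF1B and IL1R1, were above it.

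**Figure D2:**
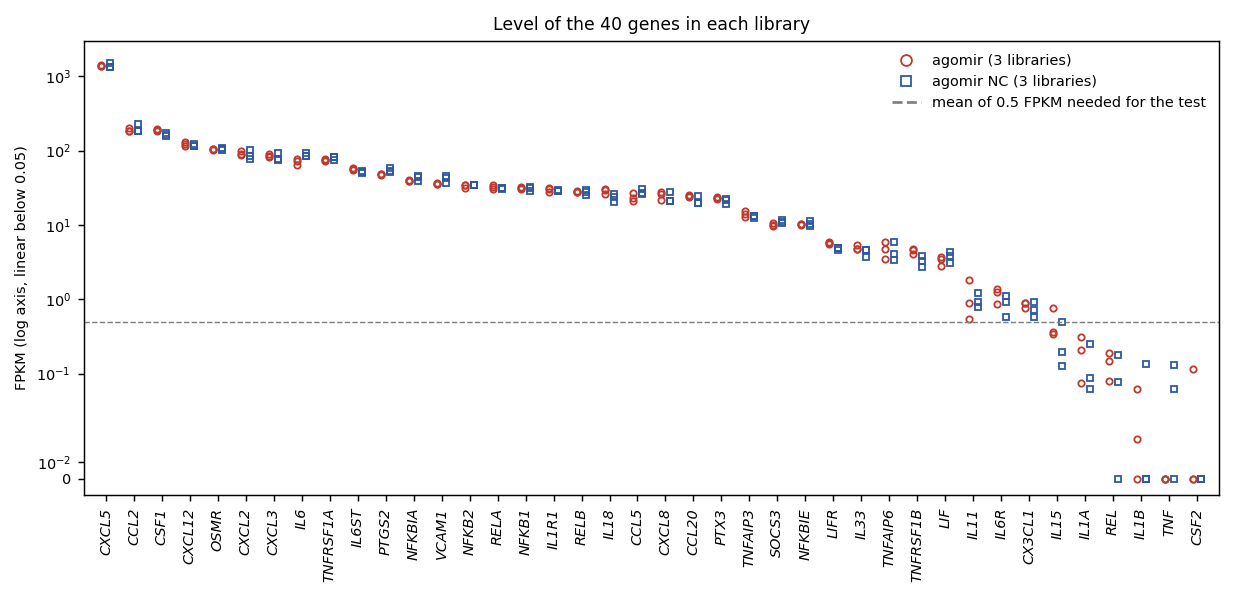
FPKM (y axis, logarithmic, linear below 0.05) of the 40 genes in each of the 3 agomir (red circles) and 3 agomir NC libraries (blue squares), ordered by mean level, with a dashed line at the mean of 0.5 FPKM needed for the test. CXCL5 stands apart at 1321 to 1492 FPKM, and 6 genes have a mean under the line.

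Among the CC chemokines, CCL2, which attracts monocytes, was the most abundant. Its level was 200.1, 181 and 185 FPKM in the agomir libraries and 181, 181 and 225 FPKM in the agomir NC libraries. Agomir NC replicate 3 was the highest of the 6 and the other agomir NC libraries lay among the agomir libraries. The log2 fold change was -0.046 (SE 0.081). It was 0.058 without agomir NC replicate 3 and between -0.098 and -0.016 without any other library.

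CCL5, an attractant of T cells and monocytes, was at 27.2, 23.3 and 20.8 FPKM with the agomir against 27.0, 25.8 and 30.0 FPKM with the agomir NC. The groups overlapped, since agomir replicate 1 lay at the level of the agomir NC libraries and the remaining agomir libraries lay below all of them. Mean levels were 23.8 ± 3.24 and 27.6 ± 2.20 FPKM (SD, n = 3 each). CCL5 was lower by a log2 fold change of -0.22 (SE 0.094, limma adjusted p = 0.447), from -0.13 without agomir replicate 3 to -0.32 without agomir replicate 1. It did not pass the unadjusted p without agomir replicate 2, agomir replicate 3, agomir NC replicate 1 or agomir NC replicate 3.

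CCL20, the ligand of CCR6, went the other way. Its level was 25.5, 23.5 and 24.6 FPKM in the agomir group, compared with 19.4, 19.9 and 24.2 FPKM in the agomir NC group. Agomir NC replicates 1 and 2 were below every agomir library, and replicate 3 fell inside the agomir group. Mean levels were 24.5 ± 1.02 and 21.2 ± 2.64 FPKM (SD, n = 3 each). On the log2 scale the difference was 0.21 (SE 0.082, limma adjusted p = 0.399, leave-one-out range 0.16 to 0.31). It was 0.31 without agomir NC replicate 3, and it did not pass the unadjusted p without agomir replicate 1, agomir replicate 3, agomir NC replicate 1 or agomir NC replicate 2.

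CXCL2, CXCL3, CXCL5 and CXCL8 encode attractants of neutrophils that share the receptor CXCR2. CXCL5 was at 1392, 1431 and 1376 FPKM with the agomir against 1345, 1321 and 1492 FPKM with the agomir NC. The agomir libraries lay between agomir NC replicates 1 and 2 on the low side and replicate 3 on the high side, and the log2 fold change was 0.016 (95% interval -0.10 to 0.13), which turned negative under median-ratio scaling (-0.00071) and without agomir replicate 2 (-0.00013), agomir NC replicate 1 (-0.0048) or agomir NC replicate 2 (-0.018).

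The other 3 genes showed the same order of agomir NC libraries at lower levels. CXCL2 was at 97.7, 87.7 and 89.2 FPKM with the agomir against 83.4, 78.1 and 103 FPKM with the agomir NC. CXCL3 was at 82.3, 84.4 and 90.4 FPKM with the agomir against 77.0, 74.6 and 93.7 FPKM with the agomir NC. CXCL8 was at 27.4, 25.9 and 21.7 FPKM with the agomir against 20.9, 20.7 and 27.4 FPKM with the agomir NC. In each of these genes agomir NC replicates 1 and 2 were the lowest libraries of all, and agomir NC replicate 3 was the highest for CXCL2 and CXCL3 and within 0.1 FPKM of the highest for CXCL8. The log2 fold changes were 0.063, 0.073 and 0.12 in that order, and none passed the unadjusted p. Without agomir NC replicate 3 they were 0.18, 0.17 and 0.25, and all 3 passed it. Without agomir NC replicate 2, one of the low libraries, they were -0.018, 0.011 and 0.055, and none passed.

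These 4 genes and the CC chemokines CCL2, CCL5 and CCL20, grouped after their values were seen, summed to 1852, 1856 and 1808 FPKM with the agomir and to 1754, 1721 and 1995 FPKM with the agomir NC. In these sums, most of which came from CXCL5, the spread within the agomir NC group was wider than that within the agomir group. The agomir NC replicates lay on both sides of the agomir libraries. Only CCL5 of these genes had a larger SD with the agomir (3.24 FPKM) than with the agomir NC (2.20 FPKM).

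**Figure D3:**
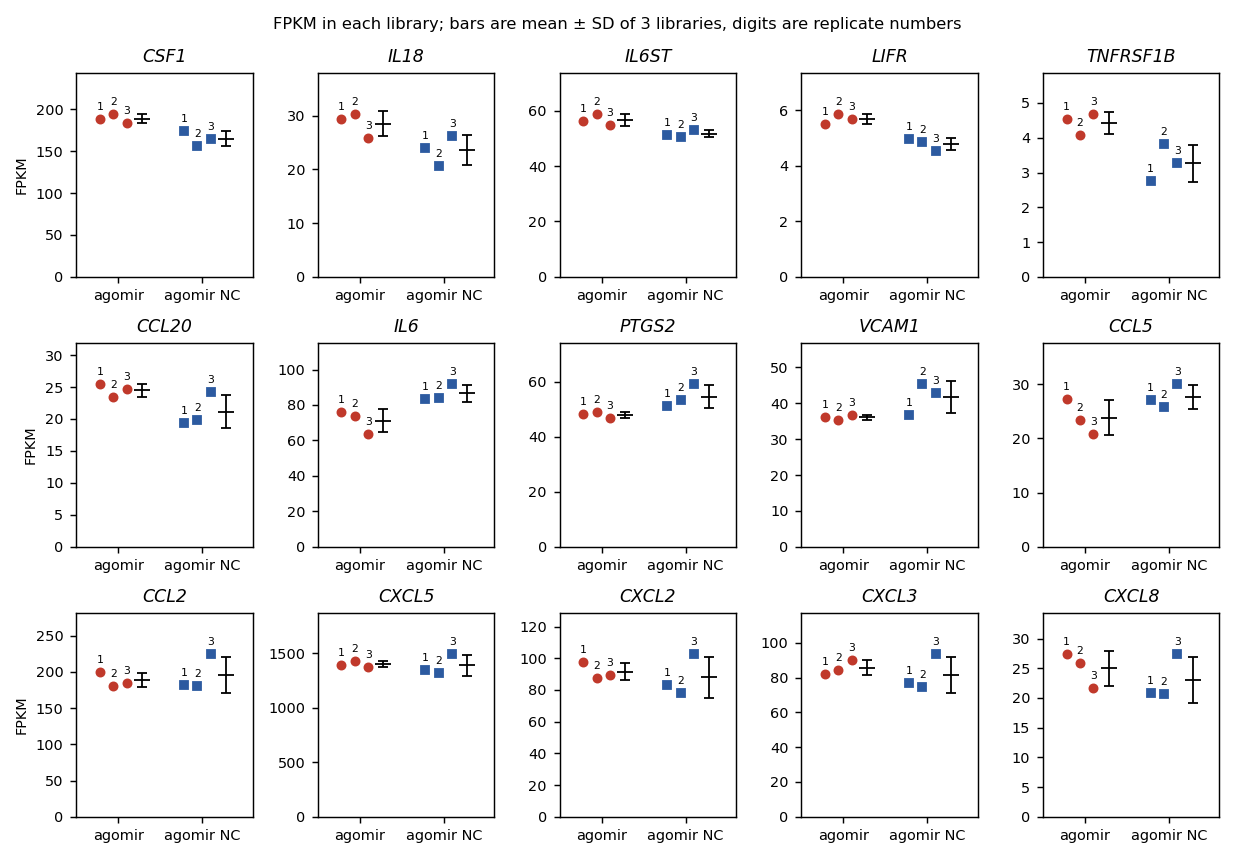
FPKM (y axis, from 0) in the 3 agomir (red circles) and 3 agomir NC libraries (blue squares), numbered by replicate, for the 10 genes past an unadjusted p of 0.05 and for CCL2, CXCL5, CXCL2, CXCL3 and CXCL8, with bars for mean ± SD. Agomir NC replicate 3 is the highest agomir NC library in all 5 genes of the bottom row, at 1492 FPKM for CXCL5, and in CCL20, CCL5, IL18, IL6, IL6ST and PTGS2, but not in CSF1, LIFR, TNFRSF1B or VCAM1.

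In the RefSeq annotation of the ARS-UCD2.0 assembly, where all 40 genes were matched by symbol, the 4 CXC genes lie in one run in the order CXCL8, LOC534181, CXCL5, PPBP, PF4, CXCL2, CXCL3 and GRO1. Genes of such a run can be near-copies that share fragments, so the split of FPKM among CXCL2, CXCL3 and GRO1 is uncertain. GRO1, taken for its position next to CXCL3, was at 120.3, 119.9 and 113 FPKM with the agomir against 114, 112 and 128 FPKM with the agomir NC, again with agomir NC replicate 3 highest and replicates 1 and 2 near the bottom. The platelet chemokine genes in the same run were low, PF4 at 3.51 to 4.80 FPKM and PPBP at no more than 0.0438 FPKM.

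CXCL12, which holds precursor and immune cells in place through CXCR4, was at 116, 121 and 131 FPKM in the agomir group, compared with 115, 122 and 117 FPKM in the agomir NC group. The groups overlapped, with agomir replicate 3 the highest, and the log2 fold change was 0.056 (95% interval -0.059 to 0.17, leave-one-out range 0.0091 to 0.093). CX3CL1, a membrane-bound chemokine, ranged from 0.581 to 0.922 FPKM (log2 fold change 0.13, SE 0.15, leave-one-out range 0.033 to 0.23).

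In the IL-1 family, the ligand genes IL1A and IL1B were listed between 0 and 0.309 FPKM, under the filter. IL18, a cytokine that drives interferon-gamma production, was at 29.4, 30.3 and 25.9 FPKM with the agomir against 24.0, 20.6 and 26.3 FPKM with the agomir NC. Agomir replicates 1 and 2 were above every agomir NC library, while agomir replicate 3 lay just under agomir NC replicate 3. Mean levels were 28.5 ± 2.36 and 23.6 ± 2.83 FPKM (SD, n = 3 each). IL18 was higher by a log2 fold change of 0.27 (SE 0.090, limma adjusted p = 0.354, leave-one-out range 0.18 to 0.35), and it did not pass the unadjusted p without agomir replicate 2 or agomir NC replicate 2.

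IL33, an alarmin of stromal cells, was at 4.71, 5.29 and 4.79 FPKM with the agomir against 3.69, 4.59 and 4.64 FPKM with the agomir NC. The groups did not overlap, yet agomir NC replicates 2 and 3 lay close under the agomir libraries, and the log2 fold change of 0.18 (SE 0.10) had an adjusted p = 0.556 in limma. It was 0.085 without agomir NC replicate 1, the lowest library. IL1R1, the signalling receptor for IL-1 and the most abundant of this family, was at 30.2, 31.0 and 28.1 FPKM with the agomir against 28.3, 29.6 and 28.8 FPKM with the agomir NC. Its groups overlapped, and the log2 fold change was 0.043 (95% interval -0.075 to 0.16, leave-one-out range 0.013 to 0.084). Among related receptors, IL18R1, which binds IL-18, was at 12.2, 12.5 and 12.3 FPKM with the agomir against 11.0, 10.6 and 11.1 FPKM with the agomir NC. All its agomir libraries were above all its agomir NC libraries (log2 fold change 0.17, adjusted p = 0.354 in limma).

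IL6, the inflammatory ligand of the gp130 family, had the lowest p of the 34 genes. Its level was 76.0, 73.5 and 63.8 FPKM in the agomir group, compared with 83.6, 84.0 and 91.9 FPKM in the agomir NC group. Every agomir library was below every agomir NC library, with agomir replicate 3 the lowest and agomir NC replicate 3 the highest. Mean levels were 71.1 ± 6.44 and 86.5 ± 4.65 FPKM (SD, n = 3 each). This was a log2 fold change of -0.28 (SE 0.068, limma adjusted p = 0.257). With any 1 library left out it stayed between -0.33 and -0.21, and passed the unadjusted p each time. In bulk samples such as these, fewer cells that express a gene and less RNA per cell cannot be told apart.

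The other ligands of the family were low. LIF, which signals through LIFR and gp130, ranged from 2.83 to 4.28 FPKM (log2 fold change -0.14, SE 0.13, leave-one-out range -0.26 to -0.045), and IL11 from 0.542 to 1.80 FPKM (log2 fold change 0.023, SE 0.26, but -0.29 without agomir replicate 1 and -0.072 without agomir NC replicate 1).

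Of the receptor genes of this family, IL6ST encodes gp130, the subunit shared by the receptors for IL-6, IL-11, LIF and oncostatin M. It was at 56.2, 58.8 and 54.7 FPKM with the agomir against 51.3, 50.7 and 53.2 FPKM with the agomir NC. Each agomir library was above each agomir NC library, by little in the case of agomir replicate 3 and agomir NC replicate 3. Mean levels were 56.6 ± 2.08 and 51.7 ± 1.33 FPKM (SD, n = 3 each). On the log2 scale the difference was 0.13 (SE 0.046, limma adjusted p = 0.376, leave-one-out range 0.10 to 0.15). It did not pass the unadjusted p without agomir replicate 2 or agomir NC replicate 2.

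LIFR, which pairs with gp130 to bind LIF, was at 5.52, 5.87 and 5.69 FPKM in the agomir group, compared with 4.96, 4.87 and 4.54 FPKM in the agomir NC group. The groups were apart, and the spread within each was small, at 5.69 ± 0.177 and 4.79 ± 0.220 FPKM (SD, n = 3 each). LIFR was higher by a log2 fold change of 0.23 (SE 0.076, limma adjusted p = 0.354), and by 0.19 to 0.25 with any 1 library left out, passing the unadjusted p each time.

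OSMR, the oncostatin M receptor and the most abundant of these receptors, was at 103, 105 and 105 FPKM with the agomir against 102, 108 and 106 FPKM with the agomir NC. The groups overlapped almost fully, with a log2 fold change of -0.014 (95% interval -0.10 to 0.075), and 0.0033 without agomir NC replicate 2. IL6R, which gives gp130 its specificity for IL-6, was at 1.39, 1.26 and 0.866 FPKM with the agomir against 0.578, 0.929 and 1.10 FPKM with the agomir NC. Its groups overlapped at these low levels, and it had a log2 fold change of 0.30 with an SE of 0.19 (limma adjusted p = 0.605). It was 0.43, past the unadjusted p, without agomir replicate 3, the lowest agomir library, and 0.13, not past it, without agomir NC replicate 1, the lowest of all. Of the 4 receptor genes, IL6ST and LIFR thus passed the unadjusted p, both higher with the agomir, and OSMR and IL6R did not pass. Of the 3 ligand genes only IL6 passed, and it was lower in the same agomir libraries. A link between these genes was not tested.

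CSF1, the growth factor for macrophages, was the most abundant of the remaining cytokine genes. It was at 188, 194 and 183 FPKM with the agomir against 174, 156 and 164 FPKM with the agomir NC. All agomir libraries were above all agomir NC libraries, of which replicate 1 was the nearest. Mean levels were 189 ± 5.55 and 165 ± 9.20 FPKM (SD, n = 3 each). CSF1 was higher by a log2 fold change of 0.19 (SE 0.049, limma adjusted p = 0.265), and by 0.16 to 0.24 with any 1 library left out, passing the unadjusted p each time. CSF1R, its receptor on macrophages, did not exceed 0.211 FPKM in any library.

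The lymphocyte growth factor IL15 was listed between 0.127 and 0.773 FPKM, and CSF2, a growth factor for granulocytes and macrophages, at 0.116 FPKM in agomir replicate 1 and at 0 in the other 5 libraries. CSF2RA, the binding chain of the CSF2 receptor, lay between 1.54 and 1.64 FPKM with the agomir and between 1.01 and 1.30 FPKM with the agomir NC. Its groups did not overlap (log2 fold change 0.33, adjusted p = 0.388 in limma). CSF2RB, another chain of that receptor, was more abundant, with a mean of 8.09 FPKM over all libraries. Its groups overlapped and its sign was the opposite (log2 fold change -0.099, adjusted p = 0.803 in limma).

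TNF itself was listed at 0 in 4 libraries and at 0.0622 and 0.132 FPKM in agomir NC replicates 1 and 3. Its receptors were present. TNFRSF1A, the death-domain receptor found on most cells, was at 74.6, 71.3 and 77.7 FPKM with the agomir against 74.5, 80.8 and 81.3 FPKM with the agomir NC. The groups overlapped, with a log2 fold change of -0.081 (SE 0.051, limma adjusted p = 0.609), and -0.12, past the unadjusted p, without agomir NC replicate 1. Without agomir replicate 2 it was -0.049 and did not pass.

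TNFRSF1B, the other TNF receptor, which has no death domain, had the largest log2 fold change of the 34 genes. Its level was 4.53, 4.07 and 4.68 FPKM in the agomir group, compared with 2.74, 3.81 and 3.26 FPKM in the agomir NC group. Every agomir library was above every agomir NC library, although agomir NC replicate 2 came close to agomir replicate 2. Mean levels were 4.43 ± 0.321 and 3.27 ± 0.532 FPKM (SD, n = 3 each), and their ratio was 1.35. TNFRSF1B was higher by a log2 fold change of 0.39 (SE 0.12, limma adjusted p = 0.310). Leaving out any 1 library gave 0.29 to 0.49, passing the unadjusted p each time.

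Of the 5 NF-kappaB subunit genes, 4 had means between 27.8 and 33.9 FPKM, and REL was near 0. NFKB2, the precursor of p52 and the most abundant, was at 34.9, 34.1 and 31.7 FPKM with the agomir against 34.3, 34.0 and 34.2 FPKM with the agomir NC. Agomir replicate 3 was the lowest library and the rest lay within 1 FPKM of each other. Its log2 fold change was -0.027 (95% interval -0.14 to 0.086). RELA, the activating subunit p65, ranged from 30.1 to 34.1 FPKM (log2 fold change 0.051, leave-one-out range 0.0082 to 0.095), NFKB1, the precursor of p50, from 28.9 to 32.6 FPKM (log2 fold change 0.036) and RELB, the partner of p52, from 25.3 to 29.6 FPKM (log2 fold change 0.020). The 95% intervals of these 4 genes together ran from -0.14 to 0.18, and signs turned for NFKB1 without agomir NC replicate 1 (-0.0073), for NFKB2 without agomir replicate 3 (0.013) and for RELB without agomir replicate 1 (-0.00094) or agomir NC replicate 1 (-0.040). REL, the subunit of lymphoid cells, did not exceed 0.191 FPKM.

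Of the inhibitors, NFKBIA encodes IkappaB-alpha, which is itself an NF-kappaB target and closes the feedback loop. It was at 38.4, 38.9 and 40.3 FPKM with the agomir against 39.4, 45.8 and 43.6 FPKM with the agomir NC. Agomir NC replicates 2 and 3 were above all other libraries, and agomir NC replicate 1 fell among the agomir libraries. The log2 fold change was -0.13 (SE 0.060, limma adjusted p = 0.477), and -0.19, past the unadjusted p, without agomir NC replicate 1. Without agomir NC replicate 2 it was -0.080 and did not pass. NFKBIE, another IkappaB protein, ranged from 9.66 to 11.4 FPKM (log2 fold change -0.033, and 0.030 without agomir NC replicate 3), and TNFAIP3, the ubiquitin-editing enzyme A20, from 12.5 to 15.4 FPKM (log2 fold change 0.12, adjusted p = 0.602 in limma, 0.051 without agomir replicate 1, its highest library).

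PTGS2, the inducible cyclooxygenase of prostaglandin synthesis, was the most abundant effector gene. It was at 48.2, 48.8 and 46.8 FPKM with the agomir against 51.3, 53.2 and 59.1 FPKM with the agomir NC. The agomir libraries lay close together and below every agomir NC library, and agomir NC replicate 3 was the highest. Mean levels were 47.9 ± 0.990 and 54.5 ± 4.09 FPKM (SD, n = 3 each). PTGS2 was lower by a log2 fold change of -0.18 (SE 0.057, limma adjusted p = 0.333), and stayed between -0.22 and -0.12 with any 1 library left out, passing the unadjusted p each time.

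VCAM1, an adhesion molecule that binds leukocyte integrins, was at 36.1, 35.5 and 36.7 FPKM in the agomir group, compared with 36.7, 45.4 and 42.9 FPKM in the agomir NC group. The agomir group was tight, agomir NC replicate 1 lay just above it, and the other agomir NC libraries were clearly higher. Mean levels were 36.1 ± 0.599 and 41.7 ± 4.48 FPKM (SD, n = 3 each). On the log2 scale the difference was -0.20 (SE 0.072, limma adjusted p = 0.378, leave-one-out range -0.29 to -0.14). It did not pass the unadjusted p without agomir replicate 2, agomir NC replicate 2 or agomir NC replicate 3.

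PTX3, a secreted pattern recognition protein, was at 23.9, 22.8 and 22.6 FPKM with the agomir against 21.4, 18.9 and 22.4 FPKM with the agomir NC. The groups did not overlap, but agomir NC replicate 3 lay directly under the agomir libraries (log2 fold change 0.14, SE 0.068, adjusted p = 0.477 in limma), and among the libraries left out in turn it passed the unadjusted p only without that one (0.20). Without agomir NC replicate 2 it was 0.075. The matrix-binding protein gene TNFAIP6 ranged from 3.36 to 5.91 FPKM (log2 fold change 0.081, SE 0.20, 0.29 without agomir NC replicate 3 and -0.081 without agomir NC replicate 1). SOCS3, the feedback inhibitor of gp130 signalling, ranged from 9.66 to 11.5 FPKM (log2 fold change -0.12, adjusted p = 0.565 in limma, leave-one-out range -0.15 to -0.082).

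Another 67 genes of the same pathways were listed by function. Of the 57 that could be tested, 5 were higher (8.77%, beside 6.63%) and 2 were lower (3.51%, beside 4.31%) at an unadjusted p of 0.05 in limma. Without the variance trend the 2 counts were 2 (beside 6.12% of all genes tested) and 0 (beside 3.94%). With 1 library left out they were 3 to 6 and 1 to 5, beside 4.47% to 6.68% and 3.08% to 4.80%. Of the 57, 0 passed the adjusted p, the lowest being 0.354. The related genes that passed the unadjusted p are named without leave-one-out ranges. The agomir libraries lay wholly above the agomir NC libraries in 9 of the 57 (15.8%, beside 10.9% of all genes tested) and wholly below in 2 (3.51%, beside 6.36%). The 20 genes carrying signals from receptors to NF-kappaB included the kinase genes CHUK, IKBKB and MAP3K7 and the adaptor genes MYD88 and TRAF6. Of the 20, 0 passed the unadjusted p in either direction, beside 6.63% higher and 4.31% lower of all genes tested. A count of 0 among 20 genes does not show that they were unchanged. Their median log2 fold change was 0.042, beside 0.013 for all genes tested, and 75% were above 0, beside 55.1%.

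Among 12 other NF-kappaB inhibitors and feedback genes, TNIP1, a partner of A20, was at 107, 104 and 102 FPKM with the agomir against 95.6, 97.0 and 96.7 FPKM with the agomir NC (log2 fold change 0.11, adjusted p = 0.363 in limma). BCL3, an IkappaB-like nuclear cofactor of p50 and p52, was at 23.3, 22.3 and 23.4 FPKM with the agomir against 24.3, 25.6 and 25.6 FPKM with the agomir NC (log2 fold change -0.13, adjusted p = 0.409 in limma). In both genes the groups did not overlap, TNIP1 being higher and BCL3 lower with the agomir. Of 12 genes of gp130 and JAK-STAT signal transduction, TYK2, a Janus kinase, only just passed, with an unadjusted p = 0.0499 in limma. It was at 14.0, 14.9 and 14.5 FPKM with the agomir against 13.6, 13.2 and 12.7 FPKM with the agomir NC. The log2 fold change was 0.13 (95% interval 5.2e-05 to 0.26, adjusted p = 0.456 in limma). The other 11, STAT3 and JAK1 among them, did not pass. Of 8 genes of prostaglandin synthesis, PTGES2, a prostaglandin E synthase, was at 12.3, 10.2 and 10.9 FPKM with the agomir against 9.72, 9.40 and 10.1 FPKM with the agomir NC (log2 fold change 0.18, adjusted p = 0.443 in limma), while the other 6 tested did not pass.

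Several chemokine receptor genes were at or near 0. CXCR1 and CCR2 were listed at 0 in all 6 libraries, CXCR2, CCR6 and CX3CR1 did not exceed 0.0770 FPKM, and CXCR4 did not exceed 0.339 FPKM. ACKR3, which binds and removes CXCL12, was in contrast at 159.9, 169 and 165 FPKM with the agomir against 173, 181 and 185 FPKM with the agomir NC. All its agomir libraries were below all its agomir NC libraries (log2 fold change -0.13, adjusted p = 0.354 in limma).

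The counts depended on single libraries. Without agomir NC replicate 3, 10 of the 34 genes were higher (29.4%, beside 5.93% of all genes tested) and 2 were lower (5.88%, beside 3.08%) at an unadjusted p of 0.05 in limma. The additions were CXCL2, CXCL3, CXCL8 and PTX3 among the higher genes, and CCL5 and VCAM1 no longer passed among the lower. Without agomir NC replicate 2 instead, 3 genes were higher (8.82%, beside 5.28% of all genes tested), LIFR, CSF1 and TNFRSF1B, and 3 lower (8.82%, beside 4.29%), CCL5, IL6 and PTGS2. IL6, PTGS2, LIFR, CSF1 and TNFRSF1B passed the unadjusted p whichever single library was left out, and also in each of the other 9 settings tried. Without limma's variance trend CCL5, CCL20, IL6ST and VCAM1 did not pass, and CCL5 did not pass with no filter on low values.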

How the data were processed

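For 23475 genes and 6 libraries the authors deposited FPKM values, 1 for each gene in each library. The submitters' processing notes name fastp, HISAT2, StringTie and the ARS-UCD1.2 build, without versions or settings. FPKM holds no read numbers. Of up to 1920 low genes compared between 2 libraries, at most 15 fell into one narrow bin of the ratio, so whole reads were not recovered and depth is unknown.

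Genes whose mean reached 0.5 FPKM were kept, and log2(FPKM + 0.5), with 0.5 as pseudocount, was compared between groups in R 4.3.3 with limma 3.58.1, using its two-sided moderated test with a trend in the variance and Benjamini-Hochberg adjustment over all 12422 genes. Unadjusted p-values were used for counts and for the choice of genes to name. The exact permutation test used all 20 labelings. The code was tested on simulated data. The 40 genes, the related lists, the markers and the tests were chosen with earlier results of these data known.

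Values in every library were given for genes kept by the filter that had an unadjusted p under 0.05, groups that did not overlap or an absolute log2 fold change of at least 0.3, and for the most abundant gene of each role. Of each related list, genes with an unadjusted p under 0.05 were named, at most 4 by p. Other genes given with all values were added after these were seen.

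Alternatives changed the pseudocount (0.1 or 1), the filter (none, or a mean of 1 FPKM), the scaling (median-ratio or quantile) and the model (without the variance trend, with array weights, or with a replicate block), or left out each library in turn. Names and neighbours of genes were taken from RefSeq for ARS-UCD2.0. No coordinates are given, since the build differs.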

Additional observations from a re-analysis of the deposited data

How the results depend on the processing

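No gene of the 34 passed an adjusted p of 0.05 in limma in any of the 15 alternatives, where the lowest was 0.164, for VCAM1 without agomir NC replicate 1 (over the alternatives its adjusted p ran from 0.164 to 0.608). At an unadjusted p, the main counts were 6 higher and 4 lower. Without the variance trend they were 4 higher (11.8%, beside 6.12% of all genes tested) and 2 lower (5.88%, beside 3.94%). With 1 library left out, the higher count was 3 to 10 (3 without agomir NC replicate 2, 10 without agomir NC replicate 3). The lower count was then 2 to 5. In the same fits, 4.47% to 6.68% of all genes tested were higher and 3.08% to 4.80% lower. Among the related genes the main counts were 5 higher and 2 lower. The higher count was 3 under median-ratio scaling (beside 5.29% of all genes tested), 3 under quantile normalization (5.6%) and 2 without the variance trend (6.12%). In the main fit 6.63% of all genes tested were higher and 4.31% lower. The lower count was 0 without the variance trend (beside 3.94%). With 1 library left out, the counts were 3 to 6 higher and 1 to 5 lower, beside the shares given above for those fits. Among all genes tested, 1 passed the adjusted p, against 0 with no filter, 0 without the variance trend and 0 to 2 with 1 library left out. The cause of these shifts was not tested.

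Neither the labels nor the methods say whether the replicate numbers pair the libraries, and the main test did not treat them as pairs. Around the group means, libraries with the same number had deviations whose correlations across genes were -0.051, 0.053 and 0.039. These values show no strong shared deviation by number, and do not settle whether such libraries shared a culture. With the replicate block, 6 of the 34 genes were higher (17.6%, beside 5.94% of all genes tested) and 4 lower (11.8%, beside 4.20%), 1 related gene was lower, and 0 of all genes passed the adjusted p.

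Of 509 single-gene log2 fold changes under the alternatives, 492 kept their direction and 17, from 10 genes, reversed. IL11 was -0.0016 with a pseudocount of 0.1, and CXCL5 was -0.00071 under median-ratio scaling. With 1 library left out, IL11 ranged from -0.29 to 0.29, CXCL5 from -0.018 to 0.070, RELB from -0.040 to 0.070, TNFAIP6 from -0.081 to 0.29 and NFKB2 from -0.055 to 0.013. NFKB1 ranged from -0.0073 to 0.064, CXCL2 from -0.018 to 0.18, OSMR from -0.037 to 0.0033, CCL2 from -0.098 to 0.058 and NFKBIE from -0.082 to 0.030. None of these 10 genes passed the unadjusted p in the main setting.

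With 3 libraries per group of unstated origin and unknown depth, counting error could not be given. The 6 of the 40 genes under a mean of 0.5 FPKM were tested only in the setting with no filter. Protein levels were not measured here.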
